A study of Polypedilum vanderplanki with 24 samples.

Results

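The genes described here are those of *Polypedilum vanderplanki*, the sleeping chironomid, whose promoter windows match all 4 trimeric heat shock factor motifs of the deposited motif scan (the HSF1 motifs MA0486.1 and MA0486.2, the HSF2 motif MA0770.1 and the HSF4 motif MA0771.1). They were taken from the table by motif identity alone, without use of expression, and numbered 591 of 17782 genes (3.32%). They were compared with the 12881 genes (72.4%) for which the scan listed no heat shock element of any kind. Messenger RNA had been sequenced from 4 lines of Pv11, a cell line of this midge that survives drying after exposure to trehalose, before trehalose (T0) and once the cells had spent 48 h in it (T48), which gave 8 groups of 3 libraries.

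The 4 lines were all related. HSF1-rescue cells (Hsf1-/-; Hsf1-HaloTag/BlaR) carried an Hsf1 and HaloTag insert with a blasticidin resistance gene at the end of the coding sequence of g7775, and their control cells (Hsf1-/-; HaloTag/BlaR) carried HaloTag and the resistance gene there without Hsf1. Both were made from the knockout line (Hsf1-/-), in which an AcGFP1 and zeocin resistance cassette interrupts the first exon of Hsf1, and so both also carried that cassette. The knockout was set against wild-type Pv11 (WT). Edited lines were grown from single cells, so each edited genotype is 1 clone. A difference between genotypes cannot be told apart from a difference that came with a clone.

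Heat shock factors are transcription factors that form trimers under protein stress. Each subunit contacts a short unit of the heat shock element (HSE), written nGAAn or as its complement nTTCn, and a trimer binds units in alternating orientation. Their best known targets are chaperone genes, which keep proteins folded under heat, oxidation and drying. In the sleeping chironomid, drying also brings in late embryogenesis abundant (LEA) proteins, thioredoxins, protein-repair methyltransferases and trehalose.

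The MA0486.1 motif is 15 bases wide and the other 3 are 13 bases wide. In the matches, the letters fall into the same frame, TTC at bases 2 to 4, GAA at bases 7 to 9 and TTC at bases 12 to 14 of MA0486.1. The sequences below are the best MA0486.1 matches of genes on which the results turn, read in the direction of the gene as the deposited table gives them, with core letters that match this frame in capitals. The first 6 belong to genes that were higher in HSF1-rescue cells at T48, the next 2 to genes lower there, and the last 3 to high-scoring sites of genes that were under the fold limit or were listed near 0.
g16359: tTTCtaGAAtaTTCt
g239/g240/g241: caTCtaGAAatTTCt
g5646: tTTCtcGAAtgTTCc
g5648: taTCgaGAAtaTTCt
g17491: aTTCtaGcAttTTCt
g13300: cTTCtaGAAaaTTtc
g13706: tTTCcaGAgttTTCa
g3612: aTTCtaGAAaaTTCt
g15457: tTTCtaGAAcaTTCt
g2625: tTTCtaGAAtaTTCt
g15293: tTTCtaGAAcaTTCt

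In coordinates of the assembly Pv_5.2, the g16359 site lies at chromosome 4, 9191980 to 9191994, 79 bases upstream of the start site of its window. The g239/g240/g241 site lies at chromosome 1, 1915908 to 1915922, 256 bases upstream. The g5646 site is at chromosome 2, 10878681 to 10878695, 118 bases upstream, and the g5648 site at chromosome 2, 10883148 to 10883162, 44 bases upstream. The g16359 and g2625 matches are the same 15 bases, and so are those of g15457 and g15293. These pairs therefore hold a site of identical letters and score, and their transcript values are compared further on.

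Several of these genes carried more than 1 site. Hits of the 4 motifs that overlapped by at least 1 base were merged into 1 site. The glutathione peroxidase gene g13510 had 4 sites, 3 of them with a complete core, and the small heat shock protein 23 gene g5646 had 4 within a short stretch upstream of its start site. Their sequences are given because they show how differently a cluster can be built, with complete or near-complete cores in g13510 and 1 strong site among weaker ones in g5646. The distance of each site centre from the start site stands in the text that follows.
g13510 site a: tTTCtaGAcacTTCt
g13510 site b: gTTCtaGAAcaTTCt
g13510 site c: tTTCtaGAAcaTTCt
g13510 site d: tTTCtaGAAacTTCt
g5646 site a: tgTCcaGAAatTTCa
g5646 site b: tTTCtcGAAtgTTCc
g5646 site c: aTCtaGAAaaTTt
g5646 site d: gaTCgaGAAaaTTCt

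For g13510 (chromosome 3, plus strand), the centres were 24 bases upstream of the start site and then 23, 95 and 202 bases downstream, with MA0486.1 scores of 14.4, 19.1, 19.0 and 19.1. For g5646 (chromosome 2, minus strand), they were 159, 118, 80 and 45 bases upstream, with scores of 10.1, 15.3 and 9.54 for the 3 MA0486.1 matches. The site 80 bases upstream was matched by the 13-base MA0770.1 alone. A score here is the log-odds sum of the scanning program, higher for a closer match.

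The gene taken here as the targeted Hsf1, g3611, was among the 591. It lies at chromosome 1, 26743487 to 26747182, minus strand, and had an MA0486.1 match 304 bases upstream of its start site. An overlapping stretch, read on the other strand, gave the match of the neighbouring gene g3612, which encodes a protein with a domain of unknown function. The g3611 transcript was listed at 0.139 TPM in HSF1-rescue cells at T48 against 0.197 TPM in control cells. In the knockout it was at 0.248 TPM against 0.307 TPM in WT. Before trehalose the values were 0.00892 TPM in HSF1-rescue cells against 0.011 TPM in control cells, and 0.0271 TPM in the knockout against 0.0863 TPM in WT. TPM is a length-corrected share of the transcripts in a library. With all 8 means under 1 TPM, neither the loss nor the return of Hsf1 could be seen in this gene's values. g7775, which holds the Hsf1 insert of HSF1-rescue cells, was at 12040 TPM at T48 and 36840 TPM at T0 in those cells. Whether g3611 is the edited gene was not tested. The study's western blots showed no HSF1 protein in the knockout at T0 or T48. By the same method, HSF1 came back in HSF1-rescue cells and not in control cells. The lines are named below by their labels.

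Of the 591 genes, 463 had 1 site, 105 had 2 and 23 had 3 or more, up to 5 in the heat shock cognate 70 gene g11137. The 747 sites included 594 that were matched by all 4 motifs, and in 571 genes the 4 motifs met at a single site. The remaining 20 genes collected the 4 motifs over separate sites. More than 1 start site had been scanned for 54 of the genes, among them 7 of the 23 with 3 or more sites, and a gene with more windows had more sequence in which to find a site.

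Complete trimers were the minority among best matches. In the best MA0486.1 match of each gene, 78 of 591 (13.2%) held all 9 core letters, 452 held 8, 60 held 7 and 1 held 6. Counted by units, 466 genes (78.8%) had 2 complete units of 3. The middle GAA was intact in 73.8%, the first TTC in 69.7% and the last TTC in 61.6% of genes. The G of the middle unit was present in all 591 matches and the C of the first unit in 97.1%, whereas the C of the last unit was present in 78.0%. The 2 bases between the first and middle units were TA in 39.6%. The 591 best matches comprised 524 different sequences, so some genes had best matches of identical letters.

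The sites were spread over the whole searched window of 1000 bases. Of the 747 sites, 362 (48.5%) lay upstream of the start site, and each bin of 100 bases held between 63 and 90 sites. The fullest bin was the one just downstream of the start site (12% of sites), where genes with 1 to 3 of the motifs had 10.5% of theirs. The chromosomes also held similar shares, from 3.25% of genes on chromosome 2 to 3.59% on chromosome 4. All 10440 hits in the table, for all genes, were on the strand of the gene. A match on the other strand was thus not listed, and a gene counted here as having no HSE may hold one.

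**Figure D1:**
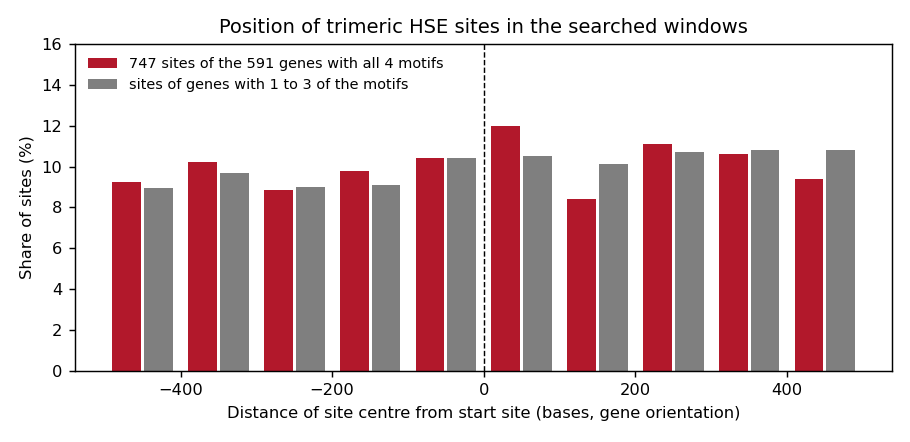
Share of merged trimeric sites (vertical axis, %) in bins of 100 bases by distance of the site centre from the start site (horizontal axis, bases, negative upstream). Red bars are the 747 sites of the genes with all 4 motifs and grey bars those of genes with 1 to 3 motifs. Red bars range between 8.43% and 12%, with no single dominant bin.

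Genes with all 4 motifs were more often expressed at high level than genes with no HSE. A mean of at least 10 TPM in some group was reached by 273 of the 591 genes (46.2%) against 35.2% of the genes with no HSE. At least 1000 TPM was reached by 23 (3.89%) against 1.04%. At the other end, 105 of the 591 genes were listed at 0 in all 8 groups, and 250 were under 1 TPM in all of them. As a share of all TPM, the 591 genes made up 7.23% in HSF1-rescue cells at T48 against 6.91% in control cells, and 6.88% in the knockout against 7.38% in WT. At T0 these shares were 6.59% in HSF1-rescue cells against 5.63% in control cells, and 5.46% in the knockout against 6.04% in WT.

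Each value is the authors' mean of 3 libraries, so no spread between libraries, no standard error and no test could be computed, and a difference below is a difference between 2 means. Differences are given on the log2(TPM + 1) scale, which understates the change of low genes. A gene was called past 2-fold when it differed by at least 1 on that scale and had at least 1 TPM in either group.

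At T48 the genes with all 4 motifs stood higher in HSF1-rescue cells, relative to control cells, than genes with no HSE did. Of 330 genes with enough TPM, 36 (10.9%) were past 2-fold higher, where 5.83% of all 8454 genes were, and 5.23% of the genes with no HSE. A further 41 (12.4%) were past 2-fold lower, where 14.2% of all genes were, and 15% of those with no HSE. The median difference was -0.12 for the genes with all 4 motifs and -0.36 for those with no HSE, and 61.8% of the genes with all 4 motifs lay above the median of the genes with no HSE. The median over all genes was itself -0.34, so most of the transcriptome was lower in TPM in HSF1-rescue cells at this time.

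The split of calls depended on the scale. In TPM, 46.8% of the calls among genes with all 4 motifs were higher ones. After median-of-ratios scaling of the group means, which moves this comparison by 0.36, 63 genes (19.3%) were higher and 20 (6.12%) lower, where 9.64% and 7.02% of all genes were, and 75.9% of the calls were higher ones. Over all genes 57.9% of the calls were higher ones after scaling, against 29.1% in TPM. The gap between the medians of genes with all 4 motifs and of genes with no HSE was 0.24 on both scales.

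At T0, before trehalose, the same order was seen. Among 308 genes, 25 (8.12%) were past 2-fold higher in HSF1-rescue cells, where 4.57% of all genes were, and 6 (1.95%) were past 2-fold lower, where 2.41% were. The medians were 0.05 for the genes with all 4 motifs and -0.10 for the genes with no HSE. Of the 36 genes higher at T48 and the 25 higher at T0, 15 were in both lists (41.7% and 60.0% of each), where over all genes the shares were 37.5% and 51.7%.

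The knockout gave a smaller contrast with WT. At T48, 21 of 331 genes (6.34%) were past 2-fold lower in the knockout, where 4.84% of all genes were, and 9 (2.72%) were past 2-fold higher, where 4.32% were. The median was -0.09 for the genes with all 4 motifs and 0.08 for those with no HSE, with 36.3% of the genes with all 4 motifs above the median of the genes with no HSE. At T0, 21 of 309 (6.80%) were lower, where 5.59% of all genes were, and 40 (12.9%) were higher, where 13.4% were. The medians at T0 were 0.28 for the genes with all 4 motifs and 0.29 for those with no HSE, so at that time the medians differed by -0.01. Under median-of-ratios scaling, which moves the T0 contrast by -0.31, the T0 calls became 36 lower and 21 higher, and 36.8% of the calls were higher ones, against 65.6% in TPM. Over all genes the same scaling gave 44.3% higher ones, against 70.5% in TPM.

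**Figure D2:**
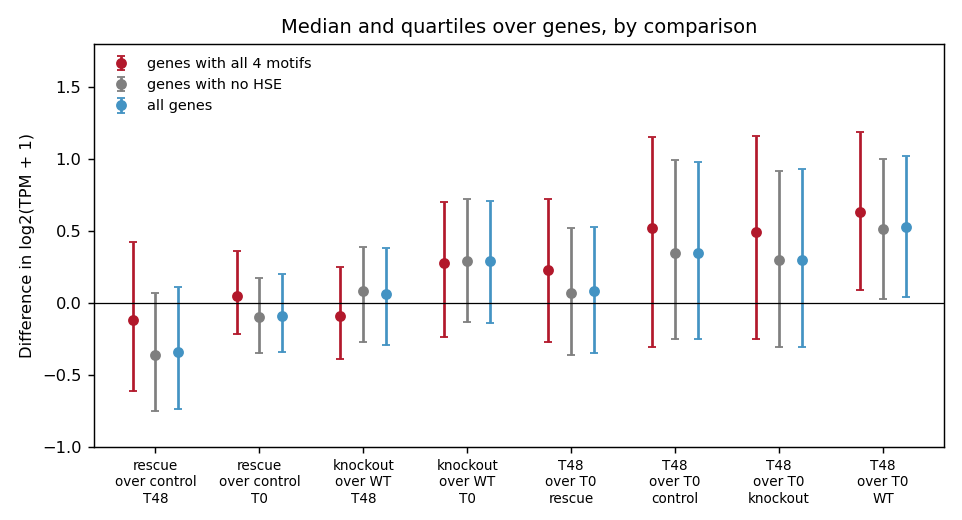
Difference in log2(TPM + 1) between 2 group means (vertical axis) for the 8 comparisons named on the horizontal axis. Points are medians and bars the quartiles over genes, for genes with all 4 motifs (red), genes with no HSE (grey) and all genes (blue). In rescue over control at T48 the red point is at -0.12 and the grey at -0.36, and in knockout over WT at T0 they are at 0.28 and 0.29.

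Both contrasts, which share no libraries, could be read together for 323 genes at T48. Of these genes, 11 (3.41%) were past 2-fold higher in HSF1-rescue cells and past 2-fold lower in the knockout, where 1.43% of all genes and 1.06% of genes with no HSE were. They were 34.4% of the 32 genes higher in rescue and 52.4% of the 21 lower in the knockout. The same shares were 27.6% and 36.4% over all genes, in that order. The opposite pattern, lower in HSF1-rescue cells and higher in the knockout, was seen for 5 genes (1.55%), where 1.52% of all genes showed it. At T0, 11 of 303 genes (3.63%) were higher in HSF1-rescue cells and lower in the knockout, where 1.05% of all genes and 0.916% of genes with no HSE were, and 3 (0.99%) showed the opposite pattern, where 1.1% of all genes did.

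**Figure D3:**
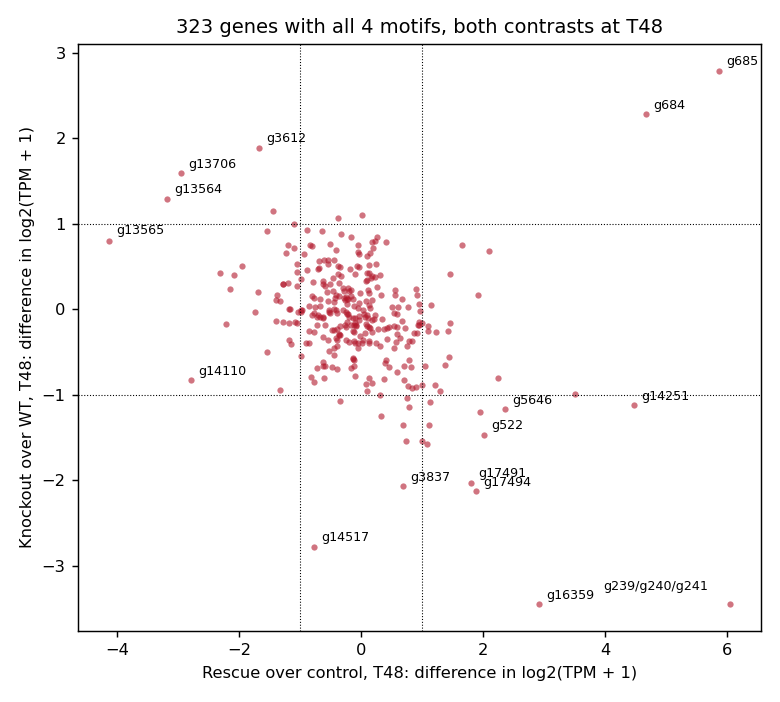
Each point is 1 of 323 genes with all 4 motifs, by its difference in log2(TPM + 1) between HSF1-rescue and control cells at T48 (horizontal axis) and between knockout and WT at T48 (vertical axis). Dotted lines mark the 2-fold limits. The lower right field holds 11 genes, among them g239/g240/g241 and g16359, and the upper left field holds 5, among them g13706 and g3612. Control cells were listed at 0 TPM for g239/g240/g241, so its horizontal position depends on the added 1.

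Chaperones come first among the named genes. Of 48 heat shock protein genes listed by the study, 15 (31.2%) had all 4 motifs, where 3.32% of all genes did: 5 of 6 Hsp70 genes, 4 of 16 Hsp20 genes, 3 of 9 chaperonin (Hsp60 and TCP-1) genes, 2 of 12 Hsp40 genes, the single Hsp10 gene, and none of 4 Hsp90 genes. At T48, 5 of the 14 with enough TPM were past 2-fold higher in HSF1-rescue cells, where 5.83% of all genes were, and none was lower. Among the 33 heat shock protein genes outside this set, 28 could be compared, of which 5 were higher and none lower. Under median-of-ratios scaling the higher ones were 8 of 14 in the set and 9 of 28 outside it, where 9.64% of all genes were. In the knockout at T48, 4 of 13 were lower and none higher, against 2 lower of 26 outside the set. Over all genes at that time 4.84% were lower and 4.32% higher. In the knockout at T0, 5 of 14 were lower and 2 higher, against none lower and 7 higher of 25 outside the set, and under median-of-ratios scaling 1 and 3 were higher. Over all genes at T0, 5.59% were lower and 13.4% higher in TPM, and 9.01% and 7.16% after scaling. Per the study's methods, the list of heat shock protein genes was drawn up from protein domains, sequence similarity and protein size.

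Small heat shock proteins hold unfolding proteins until other chaperones act on them. The small heat shock protein 23 gene g5646 (chromosome 2, 10877836 to 10878453, minus strand), with the 4 sites printed above, was at 184 TPM in HSF1-rescue cells at T48 against 35.1 TPM in control cells, and at 48.7 TPM in the knockout against 111 TPM in WT. The T0 values were 100 TPM in HSF1-rescue cells against 5.05 TPM in control cells, and 5.70 TPM in the knockout against 72.8 TPM in WT. Both lines labelled as having HSF1 were above both lines without it at each time, and the differences were 2.36 and -1.17 at T48 and 4.06 and -3.46 at T0.

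The neighbouring Hsp20 gene g5648 (chromosome 2, 10883329 to 10884144, plus strand) behaved differently at T48. It was at 2470 TPM in HSF1-rescue cells against 789 TPM in control cells, and at 1067 TPM in the knockout against 634 TPM in WT. At T0 it was at 1020 TPM in HSF1-rescue cells against 138 TPM in control cells, and at 125 TPM in the knockout against 634 TPM in WT. At T0 the lines with HSF1 were the high ones, whereas at T48 the knockout lay above WT, with a difference of 0.75.

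Of the other Hsp20 genes, g10840, which has an HSP20-like domain, was at 349 TPM in HSF1-rescue cells at T48 against 169 TPM in control cells, a difference of 1.04. In the knockout it was at 174 TPM against 276 TPM in WT, a difference of -0.66 that stayed within the 2-fold limit. Before trehalose the order was opposite, with 535 TPM in the knockout against 199 TPM in WT, a difference of 1.42, and 401 TPM in HSF1-rescue cells against 445 TPM in control cells. The alpha-crystallin gene g17054 was low at T48, at 1.66 TPM in HSF1-rescue cells against 3.77 TPM in control cells, and was within 2-fold in both contrasts.

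Hsp70 proteins refold clients with ATP. The merged gene model g239/g240/g241 (chromosome 1, plus strand) was at 64.6 TPM in HSF1-rescue cells at T48, and control cells were listed at 0. It was at 0.156 TPM in the knockout against 11.6 TPM in WT. At T0 it was at 8.07 TPM in HSF1-rescue cells, with control cells and the knockout listed at 0, and at 37.7 TPM in WT. This gene was thus at or near 0 in both lines without HSF1, at both times. The adjoining Hsp70 fragment g238 lies head to head with it on the minus strand, and its best match at chromosome 1, 1915903 to 1915917, overlaps that of g239/g240/g241. Their second sites, 1915989 to 1916003 for g238 and 1915984 to 1915998 for g239/g240/g241, overlap as well, so the pair shares 2 elements read on opposite strands. g238 was at 6.37 TPM in HSF1-rescue cells at T48 and 0.546 TPM in WT, and control cells and the knockout were listed at 0.

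The abundant Hsp70 genes moved less. g2685 was at 1531 TPM in HSF1-rescue cells at T48 against 799 TPM in control cells, and at 1080 TPM in the knockout against 1195 TPM in WT, with differences of 0.94 and -0.15. Its T0 values were 4307 TPM in HSF1-rescue cells against 1944 TPM in control cells, past 2-fold, and 1879 TPM in the knockout against 2510 TPM in WT. Under median-of-ratios scaling its T48 difference was 1.30, past 2-fold. The heat shock cognate 70 gene g11137 had 5 sites, spread over more than 1 searched window. It was between 6596 and 9923 TPM in every group and within 2-fold in all 8 comparisons. The DnaK-type gene g10883 was at 404 TPM in the knockout at T48 against 967 TPM in WT, a difference of -1.25, but at 508 TPM in HSF1-rescue cells against 404 TPM in control cells.

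The Hsp40 gene g553 encodes a DnaJ co-chaperone, which hands clients to Hsp70. It was at 651 TPM in HSF1-rescue cells at T48 against 403 TPM in control cells, and at 389 TPM in the knockout against 992 TPM in WT. At T0 it was at 487 TPM in HSF1-rescue cells against 223 TPM in control cells, and at 195 TPM in the knockout against 623 TPM in WT. Both lines with HSF1 were above both lines without it at each time, and 3 of the 4 differences were past 2-fold, the exception being 0.69 for rescue over control at T48, which was 1.05 under median-of-ratios scaling.

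Chaperonins, which fold proteins inside a ring, were within 2-fold at T48. The Hsp60 gene g2580, the TCP-1 genes g2591 and g6010 and the Hsp10 gene g6689 differed by 0.14, 0.40, 0.76 and -0.12 between HSF1-rescue and control cells, and by -0.22, -0.60, -0.90 and -0.27 between knockout and WT. Under median-of-ratios scaling g6010 was at 1.12 in the first contrast. At T0 the Hsp10 gene was at 471 TPM in the knockout against 227 TPM in WT, a difference of 1.05 that was 0.74 under that scaling. A co-factor of Hsp90, the activator of Hsp90 ATPase encoded by g12051, has a complete core with a score of 18.6 at 212 bases downstream of its start site. It was at 118 TPM in HSF1-rescue cells at T48 against 59.2 TPM in control cells, and at 56.9 TPM in the knockout against 168 TPM in WT. The 2 differences were 0.99 and -1.54, the first just under the limit and at 1.34 under median-of-ratios scaling.

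Among genes of drying tolerance, the clearest was the protein L-isoaspartyl methyltransferase gene g16359 (chromosome 4, 9192447 to 9193227, plus strand), whose product repairs damaged aspartyl residues. It was at 206 TPM in HSF1-rescue cells at T48 against 26.6 TPM in control cells, and at 20.5 TPM in the knockout against 233 TPM in WT. Without trehalose it was at 11.8 TPM in HSF1-rescue cells against 1.27 TPM in control cells, and at 2.60 TPM in the knockout against 3.31 TPM in WT. The lines with HSF1 were well above the others at T48, with differences of 2.91 and -3.45. Its second site, 99 bases upstream, had a complete core as well, with a score of 15.8.

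Thioredoxins reduce disulfide bonds. The thioredoxin gene g17491 was at 57.7 TPM in HSF1-rescue cells at T48 against 15.9 TPM in control cells, and at 15.8 TPM in the knockout against 67.5 TPM in WT, so that both lines with HSF1 stood above both without it. At T0 the knockout differed from WT by -0.10, while HSF1-rescue cells were at 25.5 TPM against 9.77 TPM in control cells. Its neighbour g17492 was at 49.7 TPM in HSF1-rescue cells against 40.0 TPM in control cells, and at 39.1 TPM in the knockout against 52.9 TPM in WT, within 2-fold in both. Close by, g17494, which has a succinate dehydrogenase membrane subunit domain, was at 39.9 TPM in HSF1-rescue cells against 10.1 TPM in control cells, and at 11.8 TPM in the knockout against 55.1 TPM in WT.

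LEA proteins protect proteins and membranes in the dry state. PvLEA3 (g16187, with 3 sites) was at 6411 TPM in HSF1-rescue cells at T48 against 3200 TPM in control cells, and at 2896 TPM in the knockout against 5383 TPM in WT. PvLEA1 (g16184) was at 1449 TPM in HSF1-rescue cells against 984 TPM in control cells, and at 1053 TPM in the knockout against 904 TPM in WT. At T0, PvLEA1 was at 236 TPM in HSF1-rescue cells against 70.5 TPM in control cells, and at 79.0 TPM in the knockout against 206 TPM in WT, past 2-fold in both contrasts. The trehalose-6-phosphate phosphatase gene g13300, which completes trehalose synthesis, was at 125 TPM in HSF1-rescue cells at T48 against 25.6 TPM in control cells, and at 32.2 TPM in the knockout against 56.7 TPM in WT. Its T0 values went the other way in the knockout, at 28.3 TPM against 10.7 TPM in WT, a difference of 1.32, and were 23.8 TPM in HSF1-rescue cells against 19.1 TPM in control cells.

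Most LEA and thioredoxin genes were outside the set. Of the study's lists of known genes of drying tolerance, 2 of 27 LEA genes (7.41%) and 2 of 25 thioredoxin genes (8.0%) had all 4 motifs, where 3.32% of all genes did, while 10 (37.0%) and 15 (60.0%) had no HSE listed, where 72.4% of all genes had none. The LEA genes with no HSE were past 2-fold higher in HSF1-rescue cells at T48 in 9 of 10 cases, with a median difference of 3.74, against 1 of 2 and a median of 0.78 for the LEA genes with all 4 motifs. Thioredoxin genes with no HSE were higher in 9 of 12 cases with a median of 3.98, against 1 of 2 and 1.05. Over all genes 5.83% were higher in this comparison, with a median of -0.34. At T0 the LEA medians were 1.34 with all 4 motifs and 1.27 with no HSE, and those of the thioredoxin genes were 1.04 and 1.5. For the methyltransferase and trehalose lists the single gene with all 4 motifs was at 2.91 and 2.25 at T48. The genes with no HSE had medians of 1.15 and 0.63. For the list of Lea-island-located (Lil) genes the order was opposite, with the single gene g16195 at 0.20 against a median of 1.12. With 1 or 2 genes per list, no order between genes with and without the motifs can be read from these values.

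**Figure D4:**
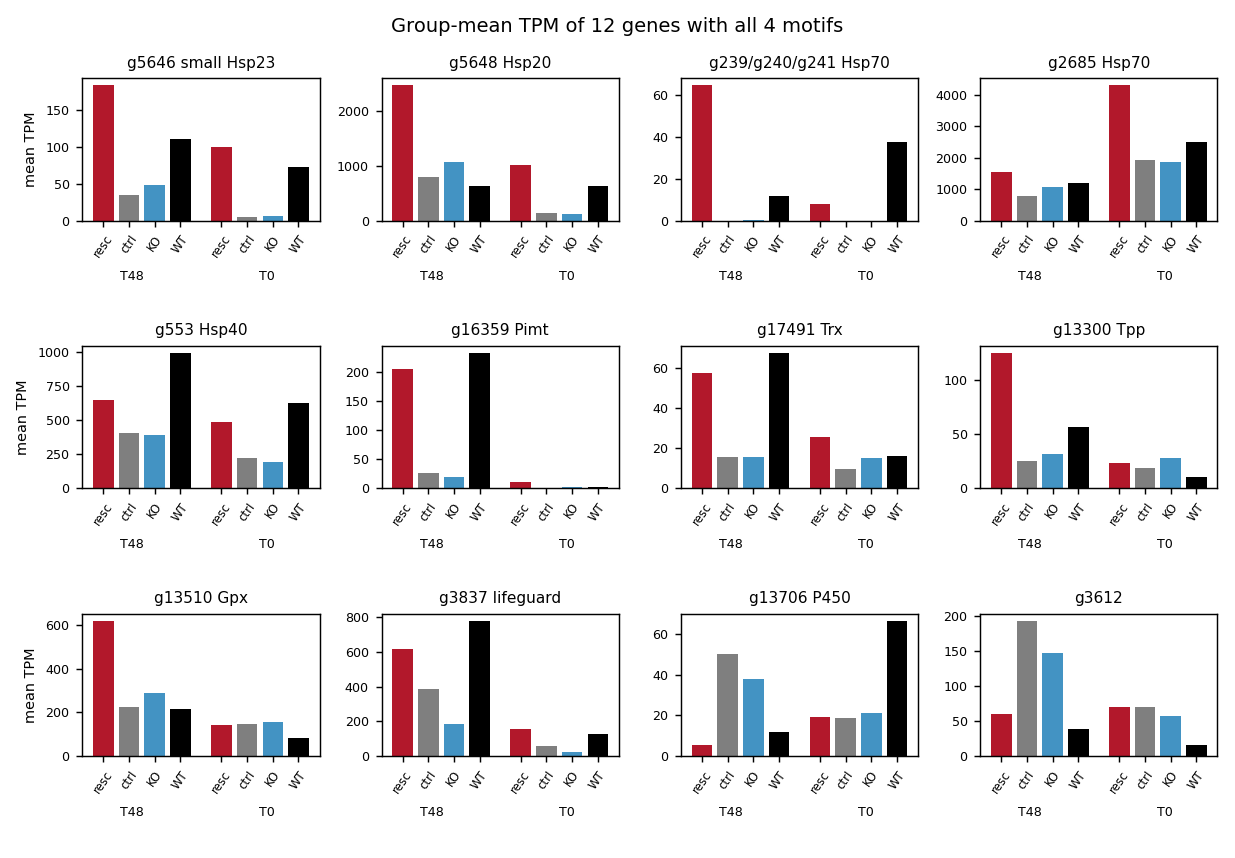
Group-mean TPM (vertical axes, each from 0) of 12 genes with all 4 motifs, with 1 bar per group: HSF1-rescue (red), control (grey), knockout (blue) and WT (black), T48 on the left of each panel and T0 on the right. For g16359 the T48 bars of HSF1-rescue cells and WT are at 206 and 233 TPM, and those of control cells and the knockout at 26.6 and 20.5 TPM. For g13706 and g3612 at T48 the order is turned round.

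Other genes that were higher in HSF1-rescue cells encode enzymes and transporters. The glutathione peroxidase gene g13510, with the highest summed score of all (79.9), was at 619 TPM at T48 against 225 TPM in control cells, but at 287 TPM in the knockout against 215 TPM in WT, so its 2 contrasts did not point the same way. At T0 its 4 means lay between 84.3 and 155 TPM. The peroxisomal-type ABC transporter gene g14251 was at 30.4 TPM in HSF1-rescue cells at T48 against 0.411 TPM in control cells, and at 4.97 TPM in the knockout against 11.9 TPM in WT. The very long-chain fatty acid ligase gene g8843 was at 17.7 TPM in HSF1-rescue cells at T48 against 0.657 TPM in control cells. It was at 0.301 TPM in the knockout against 1.59 TPM in WT, so HSF1-rescue cells were also above WT. Short-chain dehydrogenase gene g522 was at 409 TPM in HSF1-rescue cells at T48 against 101 TPM in control cells, and at 152 TPM in the knockout against 423 TPM in WT. At T0 the g522 knockout contrast was reversed, with 52.1 TPM in the knockout against 16.3 TPM in WT.

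A pair of neighbouring leucine-rich repeat genes differed in the same direction in both contrasts. g685 was at 112 TPM in HSF1-rescue cells at T48 against 0.960 TPM in control cells, and at 9.22 TPM in the knockout against 0.481 TPM in WT. g684 was at 113 TPM in HSF1-rescue cells against 3.49 TPM in control cells, and at 9.15 TPM in the knockout against 1.10 TPM in WT. Both genes were thus higher in the line labelled as having HSF1 in one contrast and in the line lacking it in the other. At T0 both were at or under 1.55 TPM in all groups.

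A further pair of genes was lower in the knockout at T48 without passing the limit in HSF1-rescue cells in TPM. The lifeguard-like gene g3837, of a family of membrane proteins that restrain cell death, was at 184 TPM in the knockout against 777 TPM in WT, and at 614 TPM in HSF1-rescue cells against 384 TPM in control cells. The second difference was 0.68, and 1.04 under median-of-ratios scaling, where it passed the limit. In T0 cells it was past 2-fold in both contrasts, at 154 TPM in HSF1-rescue cells against 59.4 TPM in control cells and at 25.7 TPM in the knockout against 129 TPM in WT. The undescribed gene g14517 was at 3.69 TPM in the knockout against 31.2 TPM in WT, and at 4.61 TPM in HSF1-rescue cells against 8.53 TPM in control cells, so the rescue line did not show the WT level.

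The genes that were lower in HSF1-rescue cells included enzymes of several kinds. The cytochrome P450 gene g13706 was at 5.51 TPM at T48 against 49.9 TPM in control cells, and at 37.9 TPM in the knockout against 11.9 TPM in WT. At T0 its knockout contrast was reversed, at 21.4 TPM in the knockout against 66.4 TPM in WT, a difference of -1.59, while HSF1-rescue and control cells were at 19.0 and 18.7 TPM. The neighbours g13565 and g13564 share 1 site. g13565 was at 0.346 TPM in HSF1-rescue cells at T48 against 22.6 TPM in control cells, and g13564 at 0.671 TPM against 14.1 TPM. In the knockout they were at 9.45 and 8.22 TPM against 5.0 and 2.77 TPM in WT. The trypsin-like gene g14110 was at 44.9 TPM in HSF1-rescue cells against 316 TPM in control cells, but at 164 TPM in the knockout against 291 TPM in WT, and at T0 it was at 16.4 TPM in the knockout against 119 TPM in WT. Glyceraldehyde-3-phosphate dehydrogenase gene g4309, a glycolytic enzyme, was at 2520 TPM in HSF1-rescue cells against 6584 TPM in control cells, and at 5771 TPM in the knockout against 6345 TPM in WT. In T0 cells g4309 was at 7281 TPM in HSF1-rescue cells against 4923 TPM in control cells, and at 3811 TPM in the knockout against 10541 TPM in WT.

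The neighbour of g3611, g3612, was at 59.7 TPM in HSF1-rescue cells at T48 against 193 TPM in control cells. In the knockout it was at 147 TPM against 39.1 TPM in WT. At T0 it was at 70.0 TPM in HSF1-rescue cells against 70.7 TPM in control cells, and at 57.9 TPM in the knockout against 16.7 TPM in WT. The 3 lines that carry the cassette in Hsf1 were all above WT at both times. The part of the cassette in these values was not tested.

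Genes with the strongest sites differed widely in their values. Of the 10 genes with the highest summed scores of the 4 motifs, 3 were under 1 TPM in all groups. Of the 7 that could be compared at T48, g16359 and g13510 were past 2-fold higher in HSF1-rescue cells, g6619 was past 2-fold lower in TPM (-1.10, and -0.76 under median-of-ratios scaling) and 4 were within the limit. g2625, an RNA helicase gene with the same 15 bases as g16359 placed 222 bases upstream, was at 19.5 TPM in HSF1-rescue cells against 27.0 TPM in control cells, and at 23.8 TPM in the knockout against 28.3 TPM in WT. g15457, an oxidoreductase gene, was at 224 TPM against 208 TPM and at 203 TPM against 218 TPM, and g15293, with the same site 280 bases downstream, was listed at 0 in all 8 groups. Values at T0 differed more. There g15457 was at 68.4 TPM in HSF1-rescue cells against 34.2 TPM in control cells, a difference of 0.98, and at 36.4 TPM in the knockout against 109 TPM in WT, a difference of -1.55. For g2625 they were 39.6 TPM in the knockout and 17.2 TPM in WT, a difference of 1.16 that was 0.86 under median-of-ratios scaling. Among the 78 genes with a complete core in the best MA0486.1 match, 35 (44.9%) were under 1 TPM throughout. So were 42.3% of the 591 genes and 49.6% of all genes.

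Over the 330 genes compared at T48, the rank correlation of the difference between HSF1-rescue and control cells was 0.10 with the summed score, 0.08 with the number of sites, 0.08 with the number of core letters and -0.12 with the distance from the start site. These are descriptions across genes of the same libraries. Core letters, complete units and distance are those of the best MA0486.1 match. A complete core at another site was not counted, for example in g239/g240/g241 (180 bases upstream), g17247 (39 bases upstream) and g11084 (123 bases upstream). Genes with 3 or more sites were past 2-fold higher in 5 of 17 cases (29.4%), those with 2 sites in 6 of 52 (11.5%) and those with 1 site in 25 of 261 (9.58%). The 5 genes were g239/g240/g241, g5646, g13510, g16187 and g17247. With 3 complete units the count was 6 of 43 (14%), with 2 units 29 of 261 (11.1%), and with fewer 1 of 26 (3.85%). Over all genes 5.83% were past 2-fold higher. Past 2-fold lower were 6 of 43 (14%), 29 of 261 (11.1%) and 6 of 26 (23.1%) in the same order of units, where 14.2% of all genes were. By number of sites, 11.8% were lower with 3 or more, 13.5% with 2 and 12.3% with 1.

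By position of the best MA0486.1 match, the share of genes past 2-fold higher in HSF1-rescue cells at T48 was 17.7% of 62 between 300 and 100 bases upstream and 14.3% of 35 within 100 bases upstream. Within 100 bases downstream it was 14.7% of 34, and between 100 and 300 bases downstream 10.6% of 66. In the outer parts of the window it was 6.35% of 63 upstream and 5.71% of 70 downstream. The knockout was past 2-fold lower than WT in 9.84% of 61 and 11.1% of 36 genes in the first 2 of these bins, and in 3.23% to 5.71% in the other 4. The number of genes in each bin is small, and the bins were chosen after the values had been seen.

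The share of genes that were higher in HSF1-rescue cells was read against the number of the 4 motifs listed. At T48 it was 5.24%, 6.82%, 8.81%, 7.58% and 10.9% for genes with 0, 1, 2, 3 and 4 of the motifs, and the median difference was -0.36, -0.30, -0.31, -0.22 and -0.12. At T0 the shares were 4.25%, 4.63%, 5.35%, 6.82% and 8.12%. For knockout over WT at T48 the shares past 2-fold lower were 4.61%, 4.66%, 6.27%, 7.45% and 6.34%, without a steady order. The class with 0 motifs includes genes matched by the short motif MA0319.1 alone, which 12% of the genes with all 4 motifs also carried, against 10.4% in the class with 0.

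**Figure D5:**
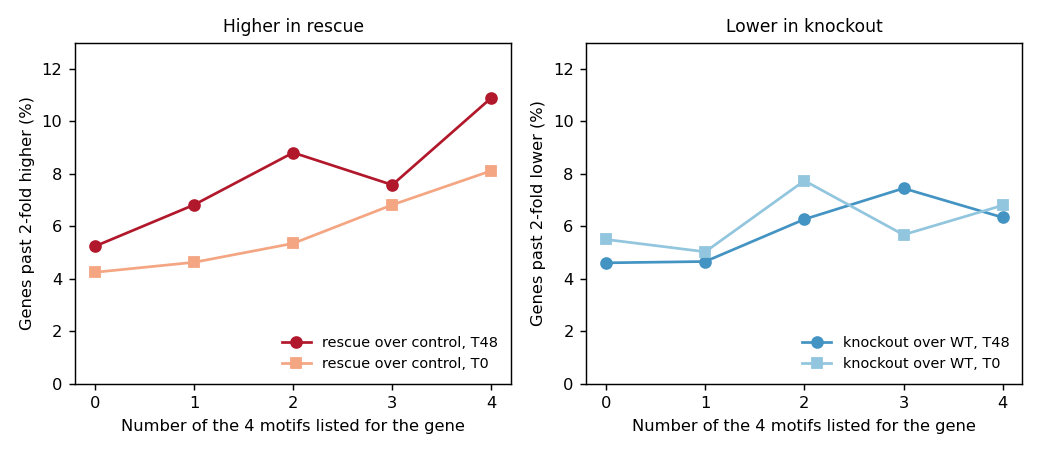
Share of genes past 2-fold (vertical axes, %) by the number of the 4 trimeric motifs listed for the gene (horizontal axes). On the left, higher in HSF1-rescue than control cells at T48 (dark circles) and T0 (light squares). On the right, lower in the knockout than WT at T48 (dark circles) and T0 (light squares). The T48 rescue share is 10.9% with 4 motifs and 5.24% with 0.

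In each line, more of the genes with all 4 motifs than of all genes were past 2-fold higher after trehalose. At T48 over T0, 50 of 318 (15.7%) were past 2-fold higher in HSF1-rescue cells, where 11.5% of all genes were, 98 of 321 (30.5%) in control cells, where 24.5% were, 93 of 323 (28.8%) in the knockout, where 22.7% were, and 103 of 327 (31.5%) in WT, where 25.7% were. Past 2-fold lower were 15 (4.72%) in HSF1-rescue cells, where 6.7% of all genes were, 28 (8.72%) in control cells, where 8.25% were, 29 (8.98%) in the knockout, where 8.26% were, and 13 (3.98%) in WT, where 4.61% were. The medians exceeded those of genes with no HSE by 0.16 in HSF1-rescue cells, 0.17 in control cells, 0.19 in the knockout and 0.12 in WT. The gap was therefore also present in both lines without HSF1. Median-of-ratios scaling lowered the share of higher calls to 70.1% against 76.9% in TPM for HSF1-rescue cells, to 58.6% against 77.8% for control cells, to 59.6% against 76.2% for the knockout and to 65.8% against 88.8% for WT. Over all genes the scaled shares were 56.9%, 52.6%, 52.5% and 53.3% in the same order of lines, against 63.2%, 74.8%, 73.3% and 84.8% in TPM. Of the genes that could be compared in both lines, 88 were past 2-fold higher in the knockout and 95 in WT, and 56 were in both lists (63.6% and 58.9% of each), near the shares over all genes (59.6% and 54.6%).

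Some of the values are shared between genes. The windows of 37 of the 591 genes overlapped that of another of them, 12 shared a listed site, and 8 formed 4 pairs at separate loci with the same best sequence at the same distance within 2 bases. A pair of this kind, the abhydrolase genes g14442 and g14467, was at 22.5 and 28.9 TPM in HSF1-rescue cells at T48 against 9.95 and 12.5 TPM in control cells. Because, per the study's methods, ambiguous reads were not counted, values of near-identical copies are uncertain.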

How the data were processed

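Per the study's methods and the submitters' processing notes, poly(A) RNA was sequenced as paired reads, mapped with HISAT2 to the Pv_5.2 assembly, handled with SAMtools 1.9 and Picard, and counted per gene with HTSeq 0.6.0 without ambiguous reads. The authors deposited 1 table that holds TPM averaged over the 3 libraries of a group, joined to a FIMO scan of the 1000 bases around each start site. Its lines repeat a gene for each motif match, so the deposited TPM columns do not add up as TPM should and were recorded as a score, as was the authors' FIMO score. Each gene was used once, and the 8 sums were between 998471 and 999131. Depth is unknown from the table. The authors' cluster assignments and the p-values and q-values of the motif matches were not used.

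A gene belonged to the set if all 4 motifs were listed for it. Positions in the table run along the chromosome: of 212 pairs of overlapping minus-strand windows with the same match, 203 gave the same place when so counted and 0 when counted along the gene. Differences were taken as log2(TPM + 1) with a minimum of 1 TPM in either group and were called at 1 or more. Alternatives were a pseudocount of 0.1, no minimum, a minimum of 5 TPM, median-of-ratios scaling, TPM without the 10 most abundant genes, narrower choices of members and wider comparison genes, and MA0486.1 matches alone for positions. Code ran in Python 3.11.15 with pandas 2.3.3, numpy 2.4.6, scipy 1.17.1 and matplotlib 3.10.9, and was tested on simulated data. Genes, lists and members were chosen with earlier results of these data known. Named genes were members in the study's heat shock protein, LEA, thioredoxin, methyltransferase, Lil and trehalose lists, those with the most extreme T48 differences among members with at least 10 TPM, and those with the highest scores, levels or numbers of sites, 55 in all, of which a part is described. The copies g14442 and g14467 were named after their values had been seen.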

Additional observations from a re-analysis of the deposited data

How the results depend on the processing

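Of 193 values recomputed under the alternatives, 181 stayed close to the reported ones, meaning within 1.5 times for a count and within the 95% Wilson interval for a share, and 12 moved further. Under median-of-ratios scaling the genes past 2-fold were 63 higher and 20 lower for rescue over control at T48, 21 higher and 36 lower for knockout over WT at T0, 65 higher and 46 lower for T48 over T0 in control cells, 52 higher and 27 lower in WT, and 46 lower in the knockout. With a minimum of 5 TPM, 3 genes were lower for rescue over control at T0. For knockout over WT at T48, 14 genes were higher with a pseudocount of 0.1, and 5 were higher among genes whose window no other member overlaps. Apart from the scaling, whose effect is its own construction, the cause was not tested. The share of members above the median of genes with no HSE stayed within its interval in all 8 comparisons under all 8 alternatives. With median-of-ratios scaling, the gap between the 2 medians was 0.24 for rescue over control at T48, 0.16 at T0, -0.17 for knockout over WT at T48 and -0.04 at T0. At 0.1 or less from the limit on the log2 scale lay 27 genes in rescue over control at T48 and 17 in knockout over WT at T48, so these counts are soft. No paired analysis was possible because the columns are means of a group and carry no replicate number. Leaving out single libraries was not run for the same reason. The opposite strand of the windows and the depth of the libraries were not analysed here.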

Other observations

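Words in the gene descriptions pointed to a few further groups. Of 280 genes described with ubiquitin, the tag that marks proteins for the proteasome, 19 (6.79%) had all 4 motifs, where 3.32% of all genes did. None of the 16 with enough TPM was past 2-fold in rescue over control at T48 (1 was higher under median-of-ratios scaling), with a median of -0.03 against -0.34 over all genes, and 1, the ubiquitin-conjugating enzyme gene g11423 with 3 sites, was lower in the knockout, at 39.6 TPM against 82.5 TPM in WT. Over all genes at T48, 5.83% were higher and 14.2% lower in rescue over control, and 4.84% were lower in knockout over WT. Of 15 genes described with chaperonin, 6 (40.0%) had all 4 motifs. Their medians were 0.27 for rescue over control and -0.43 for knockout over WT at T48, with none past 2-fold in either. Under median-of-ratios scaling 2 were past 2-fold higher in the first, where 9.64% of all genes were. Of 610 genes annotated with proteolysis, 17 (2.79%) had all 4 motifs, close to the 3.32% of all genes, and 2 could be compared at T48.

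The calreticulin gene g16754, an endoplasmic reticulum chaperone gene outside the study's heat shock protein list, was at 279 TPM in HSF1-rescue cells at T48 against 73.4 TPM in control cells, but the knockout was at 99.0 TPM against 88.3 TPM in WT, and at T0 at 366 TPM against 116 TPM, a difference of 1.65. The retinaldehyde-binding domain gene g9973 was at 1060 TPM in HSF1-rescue cells at T48 against 389 TPM in control cells, and at 122 TPM against 31.9 TPM at T0. In the knockout g9973 was at 397 TPM at T48 against 588 TPM in WT, and at T0 it was on the other side, at 49.7 TPM against 21.8 TPM in WT, a difference of 1.15. The neighbours g5034, g5035 and g5036, of which the last 2 share a site, were at 273, 79.9 and 236 TPM in HSF1-rescue cells at T48 against 105, 34.0 and 96.1 TPM in control cells. In the knockout at T48 they were at 120, 34.4 and 103 TPM against 189, 64.5 and 203 TPM in WT, whereas at T0 they were at 269, 72.1 and 222 TPM against 106, 44.9 and 138 TPM in WT, with g5034 past 2-fold higher (1.34). These genes were picked out after their values had been seen, and the values are differences between means with no replicate check.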
